A study of Mus musculus with 42 samples.

Results

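The transcripts of 10 genes of the fibroblast growth factor (FGF) and hepatocyte growth factor (HGF) systems were followed in mouse myogenic cells: the ligand Fgf2, the receptors Fgfr1, Fgfr2, Fgfr3 and Fgfr4, the FGF receptor-like gene Fgfrl1, the HGF receptor Met, and the inhibitors Spry1, Spry2 and Spry4. They were taken by symbol from RNA-seq count tables of 24466 gene symbols, in which all 10 were listed. The tables came from 3 sources. iPax7 cells are PDGFαR+Flk-1- precursors from a mouse embryonic stem cell line in which doxycycline (Dox) switches on Pax7, and they were collected with 0.75 µg/ml Dox (+Dox, n = 3) or 3 days after Dox withdrawal (-Dox 3d, n = 2). Both iPax7 groups grew in serum-containing medium with 5 ng/ml recombinant mouse basic FGF, the protein encoded by Fgf2. Satellite cells, the stem cells of adult muscle (n = 3), were isolated from mouse muscle by a Pax7-ZsGreen reporter, so cell source, isolation and culture cannot be told apart in any comparison with them. The 3 comparisons share libraries, and counts of Pax7 cannot separate the transgene from the endogenous gene. The sources do not say that replicates were separate cultures or animals, and p-values then measure the spread between these libraries only.

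FGFs bind receptor tyrosine kinases on the cell surface together with heparan sulfate, and the receptors signal through adaptor proteins to RAS and the kinase ERK. Met does the same for HGF, a factor that wakes satellite cells and guides migrating muscle precursors. Sprouty proteins are made when ERK is active and damp the pathway in return, while Fgfr4 is known for its expression in muscle precursors and Spry1 for the return of satellite cells to quiescence.

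Each library held 39010958 to 54674619 counts on genes. Reads set aside by the authors' counting as mapping to several places made up 7.11 to 7.6% in iPax7 libraries and 23.6 to 30.7% in satellite cells. Pax7 itself, given as counts scaled to a common library size (normalized counts), was at 11610 to 14130 in +Dox, 220.6 and 269.5 in -Dox 3d, and 3926 to 8504 in satellite cells. Among markers of other states, 8 of 9 tested muscle differentiation genes rose after withdrawal, and their summed level went from 170 to 200 TMM-scaled CPM (counts scaled to a common library total) in +Dox to 39658 to 40558 CPM in -Dox 3d. Proliferation markers fell in 7 of 8 cases, from 1459 to 1785 CPM summed to 191 and 199 CPM, and 1 of 5 smooth muscle and pericyte markers, the actin gene Acta2, was called higher (5441 against 53915 mean normalized counts), which made up most of that list's sum. Satellite libraries also held endothelial markers at 295 to 452 CPM summed over 6 genes, fibro-adipogenic markers at 1251 to 2318 CPM, immune markers at 88.4 to 310 CPM and Schwann cell markers at 155 to 220 CPM, against at most 3.52, 266, 10.9 and 11.5 CPM in iPax7 cells. Smooth muscle and pericyte markers were at 386 to 813 CPM there against 67 to 154 in +Dox (4 of 5 called), and proliferation markers at 218 to 273 CPM (7 of 8 called higher in +Dox). Pcna made up most of this proliferation sum in satellite cells, at a mean of 9250 normalized counts against 10190 in +Dox. The next gene of the list there was Top2a at 570.2. Of the endothelial, fibro-adipogenic, immune and Schwann cell lists, 3 endothelial, 1 fibro-adipogenic, 3 immune and 2 Schwann cell markers had no count in any +Dox library. The part of these cells and states in the results was not tested, and in bulk RNA fewer cells of a type and less RNA per cell cannot be told apart.

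The receptors that carry the FGF signal differed in makeup among the 3 groups. To compare genes with each other, CPM were divided by the exon length in kb of the GENCODE M1 model on NCBIM37 (mm9). The summed level of Fgfr1 to Fgfr4 was 25.1 ± 4.28 CPM per kb in the 3 +Dox libraries, 12.5 ± 2.65 in the 2 of -Dox 3d and 522 ± 80.8 in the 3 of satellite cells (mean ± SD). In +Dox the level was spread over 3 receptors, with Fgfr4 at 44.8% ± 6.89, Fgfr1 at 27.3% ± 4.87 and Fgfr2 at 25.8% ± 3.88 of the sum (SD, n = 3). After withdrawal Fgfr1 made up 67.5% ± 0.689 and Fgfr3 19.3% ± 1.76 (SD, n = 2), and Fgfr2 was down to 1.43% ± 1.16. In satellite cells Fgfr1 held 71.5% ± 17.2 and Fgfr4 27.2% ± 17.3 (SD, n = 3), with 46.9% Fgfr4 in the replicate that had most of it and 14.1% in the one that had least.

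**Figure D1:**
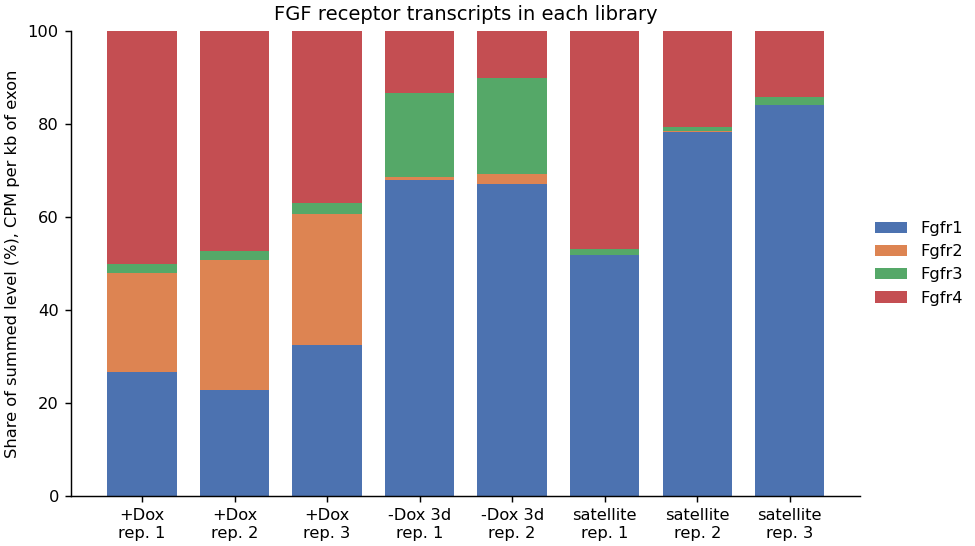
Share of each FGF receptor in the summed level of Fgfr1 to Fgfr4 (y axis, percent, from CPM per kb of exon) in each of the 8 libraries (x axis), 1 stacked bar per library. Fgfr2 is seen as a large share in the 3 +Dox libraries alone, Fgfr3 is largest in the 2 -Dox 3d libraries, and satellite replicate 1 differs from the other 2 in its Fgfr4 share of 46.9%.

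Within a group, the order of levels per length can be read for all members. Spry2 stood highest in +Dox, -Dox 3d and satellite cells alike, at 135 ± 61.2 CPM per kb in +Dox, 68 ± 6.99 in -Dox 3d and 841 ± 251 in satellite cells, above 96.9%, 93.8% and 99.6% of 19026 genes with a length. In +Dox, Fgfr4 (11.4 ± 3.51), Spry4 (8.55 ± 1.81), Fgfr1 (6.73 ± 0.766) and Fgfr2 (6.39 ± 0.906) followed, and neighbours in this order lay within each other's spread. In -Dox 3d, Fgfr1 (8.42 ± 1.7) and Spry4 (5.46 ± 0.424) came next, then Fgfrl1 (2.83 ± 0.444), Met (2.74 ± 0.428), Fgfr3 (2.44 ± 0.732) and Spry1 (2.31 ± 0.599), whose ranges overlapped, and then Fgfr4 (1.44 ± 0.0334). In satellite cells Fgfr1 (382 ± 138) came after Spry2, with Fgfr4 at 133 ± 62.3, Spry4 at 64.1 ± 13.3 and Spry1 at 46 ± 33.1, and the last 2 again overlapped. Fgfr3 (6.73 ± 2.13) and Met (5.99 ± 3.24) overlapped in satellite cells, and Fgf2 stood last there with 0.115 ± 0.0856 CPM per kb.

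**Figure D2:**
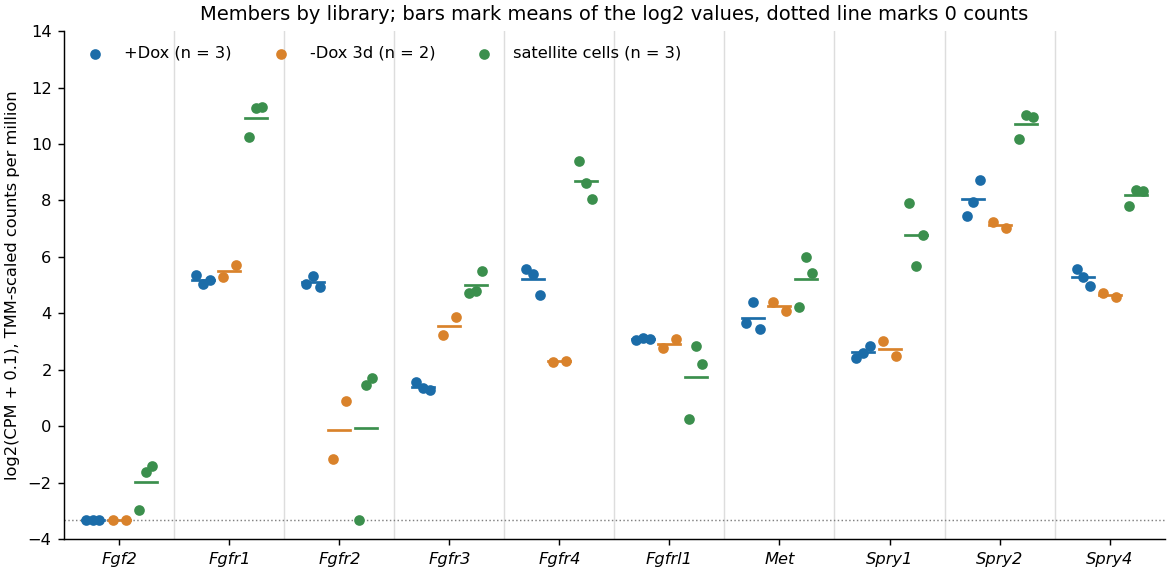
Level of each member as log2(CPM + 0.1) (y axis) in the 3 +Dox, 2 -Dox 3d and 3 satellite cell libraries (1 point per library, bars mark group means of the log2 values). Satellite cell points lie above both iPax7 groups for Fgfr1, Fgfr3, Fgfr4, Spry1, Spry2 and Spry4, and Fgf2 lies on the line of 0 counts in all 5 iPax7 libraries.

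The first comparison asks what becomes of these genes 3 days after Dox, and with it the induced Pax7, is withdrawn. Differentiation and proliferation markers changed between the same groups, so loss of Pax7 cannot be told apart from those changes. Fgfr4 fell and Fgfr3 rose, Fgfr2 was lower in both -Dox 3d libraries without passing the test, and Fgfr1, Fgfrl1, Met and Spry1 were not called. Of the 10 members, 1 was called higher and 1 lower (edgeR quasi-likelihood test with Benjamini-Hochberg adjusted p under 0.05). Over all 14836 genes tested, 4.66% were called higher and 3.04% lower. The median log2 fold change was -0.15 over the 9 members with counts and -0.0049 over all genes tested.

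Fgfr4 (chromosome 13, 55254001 to 55270120, NCBIM37, plus strand) had 2240, 1993 and 1183 normalized counts in the +Dox replicates and 223.3 and 230.8 in -Dox 3d. The groups did not overlap, and the lowest +Dox library still stood well above both libraries without Dox. The log2 fold change was -2.99 (SE 0.466, 7.95-fold lower, adjusted p = 0.0045, edgeR). Leaving out either -Dox 3d replicate took the adjusted p past the threshold, to 0.0549 without replicate 1 (log2 fold change -2.97) and 0.0512 without replicate 2 (-3.00).

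Fgfr3 (chromosome 5, 34064373 to 34079716, plus strand), a receptor known above all from growing cartilage, went the other way. Its normalized counts were 135.2, 116.3 and 111.1 in +Dox and 443.9 and 683.1 in -Dox 3d, again without overlap. The log2 fold change was 2.22 (SE 0.412, 4.66-fold, adjusted p = 0.0108, edgeR). It lost its call without +Dox replicate 2 (adjusted p = 0.0503) and without -Dox 3d replicate 2 (adjusted p = 0.108).

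Fgfr2 (chromosome 7, 137306026 to 137410322, minus strand), whose splice forms respond to different FGFs in epithelium and mesenchyme, was low in both libraries after withdrawal. It had 1542, 1891 and 1455 normalized counts in +Dox and 16.54 and 82.15 in -Dox 3d. Every +Dox library stood far above both others, while the -Dox 3d libraries were themselves far apart. The log2 fold change of -5.04 (SE 1.54) did not pass (unadjusted p = 0.00888, adjusted p = 0.0836, edgeR). It was -4.31 without -Dox 3d replicate 1 and -6.60 without replicate 2 (adjusted p of 0.398 and 0.204). The difference passed with DESeq2 (adjusted p = 0.000467), in a fit of the iPax7 libraries alone (adjusted p = 0.00391) and without satellite replicate 1, in which Fgfr2 had no count (adjusted p = 0.00519).

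Fgfr1 (chromosome 8, 26624126 to 26686186, plus strand), the receptor that FGF2 uses on muscle precursors, had 1732 ± 197 normalized counts (SD, n = 3) with Dox and 2165 ± 437.3 (SD, n = 2) after withdrawal, with overlapping ranges (log2 fold change 0.32, SE 0.335, adjusted p = 0.673, edgeR). The number of Fgfr4 counts per Fgfr1 count, which needs no scaling between libraries, was 1.15, 1.28 and 0.7 in +Dox, 0.121 and 0.0935 in -Dox 3d, and 0.554, 0.161 and 0.103 in satellite cells. The mean log2 ratio was 3.25 lower in -Dox 3d than in +Dox and 2.27 higher in +Dox than in satellite cells (exact two-sided permutation test, p = 0.1 for both, the smallest these designs allow), the latter 2.97 without satellite replicate 1. Between -Dox 3d and satellite cells it differed by -0.98 (exact permutation p = 0.4), a difference of -0.28 without satellite replicate 1.

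The Sprouty genes differed among themselves. Spry2 (chromosome 14, 106291166 to 106296036, minus strand) had 8322, 11699 and 20036 normalized counts in +Dox and 7188 and 6213 in -Dox 3d. The +Dox libraries were all above both others and spread widely among themselves. Its log2 fold change of -0.99 (SE 0.406) did not pass (adjusted p = 0.19, edgeR). Spry4 (chromosome 18, 38745922 to 38760922, minus strand) was likewise lower without overlap, at 2244, 1863 and 1458 against 1249 and 1119, and did not pass either (log2 fold change -0.65, SE 0.297, adjusted p = 0.244, edgeR). Spry1 (chromosome 3, 37538869 to 37543520, plus strand) overlapped between the groups, at 244.9 to 337.8 in +Dox and 259.4 and 375.9 in -Dox 3d (log2 fold change 0.14, SE 0.544).

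Met (chromosome 6, 17413800 to 17523980, plus strand) was at 514.5 to 1001 normalized counts in +Dox and 804 and 1004 in -Dox 3d (log2 fold change 0.37, SE 0.513, adjusted p = 0.78, edgeR). Fgfrl1 (chromosome 5, 109123248 to 109135969, plus strand), which binds FGFs but lacks the kinase, was at 395.1 ± 8.494 (SD, n = 3) and 355.6 ± 55.82 (SD, n = 2). Fgf2 (chromosome 3, 37247268 to 37304299, plus strand) had no count in any of the 5 iPax7 libraries, which held 48203901 to 54674619 counts each.

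**Figure D3:**
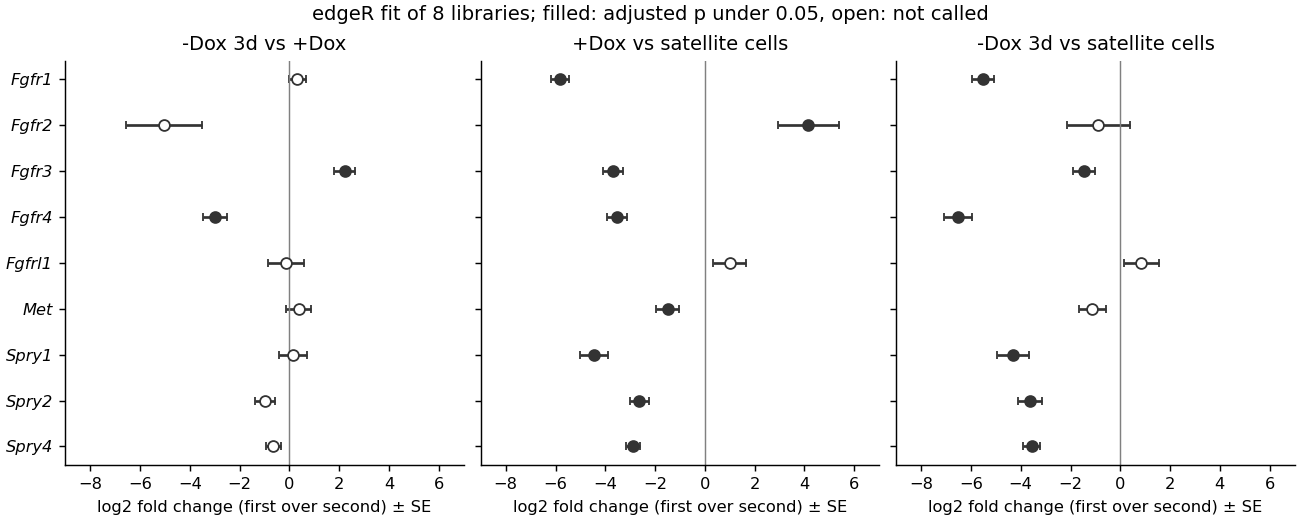
Log2 fold change of 9 members (y axis; Fgf2 is left out for its 0 counts in iPax7 cells) in the 3 comparisons, first group over second (x axis), with bars of ± 1 SE from the edgeR fit of 8 libraries. Filled points are called at an adjusted p under 0.05: Fgfr3 and Fgfr4 in the left panel, and 8 and 6 members in the panels with satellite cells. Of the called points, those above 0 are Fgfr3 in the left panel and Fgfr2 in the middle one.

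The second comparison sets +Dox iPax7 cells against satellite cells, as precursors made in culture against those of muscle. Receptors and inhibitors were mostly lower in the cultured cells, by 2.81-fold for Met to 56.7-fold for Fgfr1. Of the 10 members, 7 were called lower in +Dox (Fgfr1, Fgfr3, Fgfr4, Met, Spry1, Spry2 and Spry4) and 1 higher (Fgfr2). Over all genes tested, 25.1% were called lower and 19.8% higher. The median log2 fold change was -3.15 over the 10 members, with Fgf2 at its bound, and -0.17 over all genes.

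Fgfr1 had 57209, 116457 and 120713 normalized counts in the satellite replicates against 1559 to 1946 in +Dox, and satellite replicate 1 was the lowest of its group. The log2 fold change of +Dox over satellite cells was -5.82 (SE 0.371, adjusted p = 9.33e-06, edgeR). Fgfr4 ran in the opposite order among the satellite libraries, at 31715, 18726 and 12457, all above the +Dox maximum of 2240 (log2 fold change -3.54, SE 0.403, adjusted p = 0.000169). Fgfr3, at 1245, 1299 and 2125 in satellite cells, was 12.9-fold lower in +Dox (log2 fold change -3.69, SE 0.41, adjusted p = 0.00015).

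Fgfr2 was the exception, with 0, 124.7 and 150.4 normalized counts in satellite cells and 1630 ± 230.8 (SD, n = 3) in +Dox. It was called higher in +Dox (log2 fold change 4.15, SE 1.23, adjusted p = 0.0219, edgeR), with adjusted p between 0.000456 and 0.0496 over its alternatives and a log2 fold change of 3.56 without satellite replicate 1. Fgfrl1 had 51.34, 333.8 and 211 in satellite cells, below the lowest +Dox value of 387.6, and was not called (log2 fold change 0.99, SE 0.649, adjusted p = 0.238).

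All 3 Sprouty genes were called lower in +Dox, beside 25.1% of all genes tested. Their groups did not overlap, and the share of all genes without overlap was not counted. Spry1 had 11314, 2415 and 5220 normalized counts in satellite cells against 287.8 ± 46.89 (SD, n = 3) in +Dox (log2 fold change -4.46, SE 0.558, adjusted p = 0.000271, edgeR). The spread of Spry1 in satellite cells had the same order as the summed immune markers, at 310, 88.4 and 135 CPM. The summed satellite cell and myogenic precursor markers had this order too, at 25173, 15630 and 21593 CPM. Sdc4 made up most of that sum, at 786929, 476110 and 700880 normalized counts. Single genes of both lists differed. Pax7 (8504, 3926 and 5456) and the immune marker Cd68 (1718, 288.2 and 811.1) kept the order. Myf5 (122890, 104725 and 140603) and the immune marker Ptprc (392.3, 331.1 and 584.3) were highest in replicate 3. An order of 3 libraries is easily shared, and the part of any cell type in it was not tested. Without satellite replicate 1 the log2 fold change was -3.73, still called (adjusted p = 0.000397, edgeR), as it was in each of its 15 alternatives.

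Spry2 had 54445, 99678 and 94503 normalized counts in satellite cells, 6.21-fold over +Dox (log2 fold change -2.63, SE 0.374, adjusted p = 0.000547). Spry4 had 10580, 15833 and 15286, 7.49-fold over +Dox (log2 fold change -2.91, SE 0.28, adjusted p = 7.13e-05). In both, as in Fgfr1, satellite replicate 1 was the lowest of its group and still above every iPax7 library.

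Met overlapped between the groups, with 876.8, 3009 and 2036 normalized counts in satellite cells and 588.1, 1001 and 514.5 in +Dox. It was called lower in +Dox (log2 fold change -1.49, SE 0.472, adjusted p = 0.0284, edgeR), and 4 of the 6 fits that left out a library of these groups lost the call, with adjusted p up to 0.104. Fgf2 had 1, 8 and 10 raw counts in satellite cells and passed the filter on low counts through that group alone. With counts pooled over each group, Fgf2 was at least 10.6-fold higher in satellite cells against a floor of 3 counts in +Dox. This bound does not hold for each satellite library, and the test did not call Fgf2 (adjusted p = 0.0721, edgeR). Of its exon bases, 15.6% are shared with Nudt6 on the opposite strand, and whether counting used strand is not given in the sources used here.

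The third comparison places cells after withdrawal beside satellite cells. Of the 10 members, 6 were called lower in -Dox 3d (Fgfr1, Fgfr3, Fgfr4, Spry1, Spry2 and Spry4) and 0 higher by edgeR, the same 6 had an unadjusted p under 0.05, and DESeq2 called 6. Over all genes tested, 20.9% were called lower and 18.1% higher. The median log2 fold change was -3.08 over the members, with Fgf2 at its bound, and -0.23 over all genes.

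Fgfr4 stood out here with a log2 fold change of -6.53 (SE 0.56, 92.3-fold lower, adjusted p = 6.75e-05, edgeR), its 2 -Dox 3d libraries being the lowest of all 8. Fgfr1 was 45.3-fold lower (log2 fold change -5.50, SE 0.438, adjusted p = 4.71e-05). Fgfr3 was closest to satellite cells among the called receptors, at 2.76-fold lower (log2 fold change -1.47, SE 0.433, adjusted p = 0.0245), and it lost its call without satellite replicate 3 or either -Dox 3d library (adjusted p of 0.0606 to 0.19).

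Spry1, Spry2 and Spry4 were 19.9-fold, 12.4-fold and 11.7-fold lower than in satellite cells (log2 fold changes -4.31, -3.63 and -3.55, with adjusted p of 0.000991, 0.00039 and 0.000108, edgeR). Spry1 was at -3.59 without satellite replicate 1. Each was without overlap, and here too the share of all genes without overlap was not counted. Met, with 804 and 1004 against 876.8 to 3009, was not called (log2 fold change -1.13, SE 0.536, adjusted p = 0.12), though it was without satellite replicate 1 (adjusted p = 0.0254). Fgfr2 was low on both sides, at 49.4 ± 46.4 (SD, n = 2) and 91.7 ± 80.4 (SD, n = 3). With counts pooled over each group, Fgf2 was at least 6.07-fold higher in satellite cells against a floor of 3 counts in -Dox 3d. This bound does not hold for each satellite library, and the test did not call Fgf2 (adjusted p = 0.134, edgeR).

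Other genes of the pathway were counted from 5 hand-written lists. Their counts are to be read beside the shares over all genes tested. After withdrawal 4.66% of these were called higher and 3.04% lower. In +Dox against satellite cells 25.1% were lower and 19.8% higher, and in -Dox 3d against satellite cells 20.9% were lower and 18.1% higher. Among FGF ligands other than Fgf2, 5 of 13 tested were called after Dox withdrawal, each higher. Fgf21, an endocrine FGF that needs a Klotho co-receptor, went from 8.263, 14.81 and 0.9106 normalized counts to 6313 and 4049. Fgf6, a ligand found in muscle, had 3 raw counts or fewer in each +Dox library and 160.8 and 279.7 normalized counts in -Dox 3d. Fgf13, which had no count in +Dox and 734.3 and 1026 in -Dox 3d (at least 1108-fold higher against a floor of 3 counts over the group), belongs with Fgf11, also called, and Fgf12 to a branch of the family that stays inside the cell and is not known to act through the receptors. Against satellite cells, 4 of 13 ligands were called in +Dox, each lower, and Fgf12 and Fgf13, without a count in +Dox, were at least 459-fold and 1015-fold higher in satellite cells. -Dox 3d cells had 4 ligands higher than satellite cells (Fgf5, Fgf6, Fgf7 and Fgf21) and 2 lower.

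The HGF list, which holds the ligand and its activating proteases, had 8 genes tested, and after withdrawal none came closer to the threshold than Spint2, an inhibitor of HGF-activating proteases (adjusted p = 0.307, edgeR). Hgf itself was near the floor, with at most 101.4 normalized counts in any library and none in 3 of 8. Against satellite cells, the plasminogen activators Plau and Plat were lower in +Dox (log2 fold changes -4.66 and -2.09) and in -Dox 3d (-4.01 and -2.04), and Spint1, an inhibitor of the HGF activator, was higher (7.45 and 5.46). Plau had 18628 normalized counts in satellite replicate 1 and 2176 and 3240 in the others.

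Among co-receptors and heparan sulfate genes, 2 of 25 rose after withdrawal and 1 fell. Sulf1, an enzyme that trims sulfate from heparan chains, rose with a log2 fold change of 4.51 (SE 0.779, adjusted p = 0.00745, edgeR), Gpc1 rose by 1.38 and Gpc6, another glypican, fell by 1.80 on the log2 scale. Against satellite cells, 10 of 25 were lower in +Dox and 3 higher, and 9 lower and 3 higher in -Dox 3d. The 2 heparan sulfatases ran in opposite directions, Sulf1 at 68.05 in +Dox against 16118 in satellite cells and Sulf2 at 4386 against 212.9 mean normalized counts. Sdc4, a heparan sulfate carrier of satellite cells, had a mean of 30063 in -Dox 3d and 654640 in satellite cells.

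Of 27 adaptor and RAS-ERK genes, 1 was called after withdrawal, the adaptor Grb2, which rose (log2 fold change 1.38, adjusted p = 0.0384, edgeR). In the comparison of +Dox with satellite cells, 10 were lower and 4 higher, with Braf (-2.79), Gab2 (-2.53) and Nf1 (-1.85) among the lower ones. In -Dox 3d against satellite cells, 6 were lower and 2 higher, beside 20.9% and 18.1% of all genes tested. Hras was among the higher ones at 1.81.

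Of 17 tested ERK feedback and target genes other than the members, 3 were called after withdrawal, each lower. Etv4, a transcription factor induced by FGF signals, fell from 1179, 1499 and 1995 normalized counts to 270.2 and 302.8 (log2 fold change -2.44, SE 0.629, adjusted p = 0.0457, edgeR), and Myc and Fosl1 were the others. The median of this list was -0.95 on the log2 scale. Against satellite cells the list split. Fos, Egr1 and Myc were lower in +Dox (log2 fold changes -9.41, -6.61 and -4.30), while Etv4, Dusp4 and Dusp6, the last 2 being ERK phosphatases, were higher (5.43, 2.93 and 1.43). In all, 8 were lower and 4 higher in +Dox, and 8 lower and 2 higher in -Dox 3d.

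**Figure D4:**
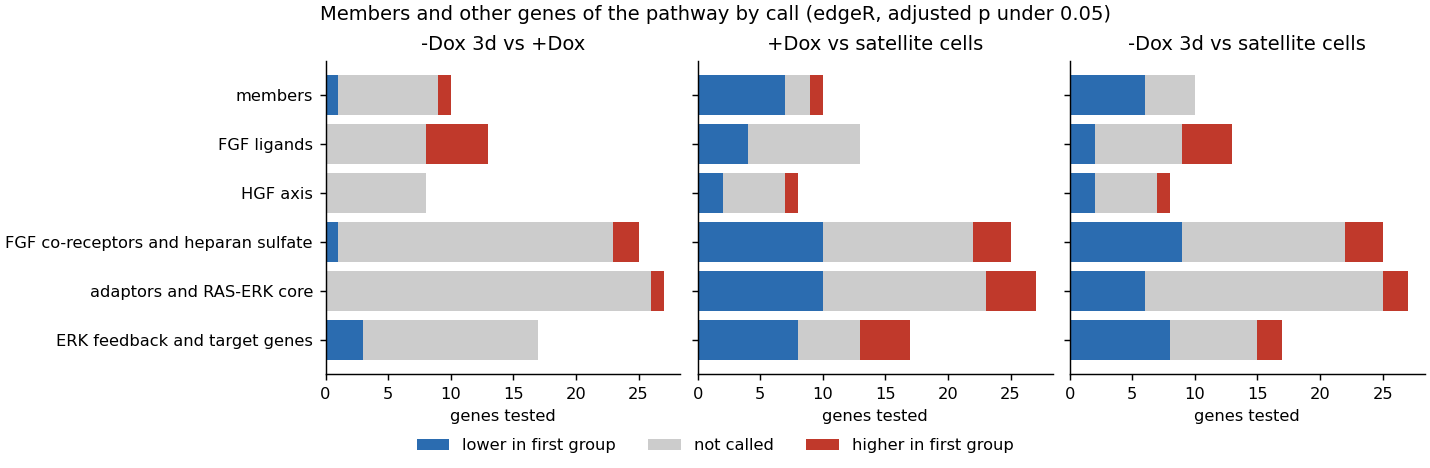
Number of genes tested (x axis) that were lower in the first group, not called or higher in it, for the 10 members and 5 lists of other pathway genes (y axis) in each comparison (edgeR, adjusted p under 0.05). After withdrawal most of each bar is not called, and in the panels with satellite cells the members have 7 and 6 genes lower.

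The genes most like 3 of the members over the 8 libraries were looked up by Pearson's r of log2 CPM among all genes tested. These correlations describe 8 points that fall into 3 groups and share each library's depth. Fgfr4 was closest to Rcan2 (r = 0.992), Dtx4 (0.99) and Plppr3 (0.989). Met was closest to Mtmr12 (0.97), Aftph (0.969) and Nop14 (0.965), and Spry1 to Per1, Cd48 and Trem2 (0.996 each).

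Pax7 binding sites and chromatin were read for the same genes from peak lists on mm9. The Pax7 list held 2455 sites found in at least 2 +Dox replicates and in none without Dox, and it gives positions only. Within 100 kb of an annotated start, 3 of 10 members had a site (Fgfr4, Met and Spry1), against 18.8% of 19026 annotated genes, and Fgfr2 had the nearest start to 2 sites, 113 and 115 kb upstream of the model used here and outside exons, though inside a longer transcript that GENCODE M1 also lists under Fgfr2. The site of Fgfr4 lay 5.34 kb past the end of the gene, in no annotated gene (chromosome 13, 55275465 to 55276488). Both sites of Met were intronic (chromosome 6, 17466028 to 17467081 and 17478728 to 17479617). The sites of Spry1 lay 28.1, 89.2 and 92.9 kb past its end, and the last 2 are nearer to the start of Gm5148.

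The sequences of 5 of these sites are shown, those with an ATAC enrichment over 30 in +Dox, as the most open places where the list puts Pax7 by the members. Each is the plus strand of NCBIM37 over 200 bases around the summit of the +Dox ATAC peak in the site. Capitals mark TAAT on either strand, the core that homeodomains such as that of Pax7 read, and GTCACG on either strand, letters of the paired-domain consensus of the Pax family.
Fgfr4, chr13:55275932-55276131: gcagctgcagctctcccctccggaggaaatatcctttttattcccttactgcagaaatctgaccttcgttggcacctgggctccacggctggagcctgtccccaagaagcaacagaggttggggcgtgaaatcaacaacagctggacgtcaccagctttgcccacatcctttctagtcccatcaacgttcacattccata
Fgfr2 site 1, chr7:137523457-137523656: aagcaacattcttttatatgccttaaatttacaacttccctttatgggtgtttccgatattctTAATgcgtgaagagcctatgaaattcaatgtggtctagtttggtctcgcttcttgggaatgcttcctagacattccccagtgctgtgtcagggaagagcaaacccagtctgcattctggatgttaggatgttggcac
Fgfr2 site 2, chr7:137525219-137525418: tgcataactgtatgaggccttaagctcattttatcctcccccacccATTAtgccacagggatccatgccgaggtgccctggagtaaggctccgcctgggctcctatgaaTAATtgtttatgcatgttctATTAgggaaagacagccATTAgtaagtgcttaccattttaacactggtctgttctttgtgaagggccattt
Met site 2, chr6:17466213-17466412: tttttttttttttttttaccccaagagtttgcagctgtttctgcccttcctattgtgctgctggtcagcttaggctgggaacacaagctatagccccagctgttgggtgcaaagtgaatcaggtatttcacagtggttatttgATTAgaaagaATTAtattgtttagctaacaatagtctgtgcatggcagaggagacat
Spry1 site 1, chr3:37571563-37571762: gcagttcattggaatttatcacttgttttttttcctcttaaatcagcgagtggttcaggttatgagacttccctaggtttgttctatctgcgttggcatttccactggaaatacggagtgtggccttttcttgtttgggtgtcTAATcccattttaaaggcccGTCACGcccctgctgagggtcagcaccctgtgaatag

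The Fgfr4 window held neither set of letters. Fgfr2 site 2 held TAAT 4 times and Fgfr2 site 1 once, Met site 2 held it 2 times, and the Spry1 window held TAAT and GTCACG once each. Of the windows not shown, Met site 1 held GTCACG once and no TAAT, and Spry1 sites 2 and 3 held TAAT 4 times and once. Both were searched on both strands, and neither overlaps the other. In windows of the same length around all 2455 Pax7 sites, 74.4% held TAAT and 9.45% GTCACG, and around all +Dox ATAC peaks the shares were 60.5% and 5.46%.

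Accessibility at the sites was read from ATAC-seq peaks, called by the authors on merged replicates, so there is no replicate error and no test. The value is the fold enrichment of the highest peak over a site, which also depends on each library's depth. In this paragraph its place among all peaks of its own list is given beside it. At the Fgfr4 site the enrichment was 34.3 in +Dox (above 95.6% of that list's peaks) and 8.18 at 12 hours (above 73.1%). It was 5.06 at 24 hours (above 46.6%) and 2.68 at 3 days after withdrawal (above 13.1%), with no peak in satellite cells. Fgfr2 site 1 had 56.9 in +Dox (above 98.5%) and 12.2 at 3 days (above 79.3%). Fgfr2 site 2 had 39.4 in +Dox (above 96.7%) and 3.05 at 3 days (above 21.8%). At Met site 2 it was 57.8 in +Dox (above 98.6%), 6.38 at 3 days (above 59.2%) and 8.2 in satellite cells (above 70%). At Spry1 site 1 it was 36.4 (above 96.1%), 12 (above 78.9%) and 7.42 (above 65.9%) in the same order.

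All 8 sites by these genes had a higher enrichment in +Dox than at 3 days, as did 79.3% of all 2455 sites. Peaks of H3K27Ac, a mark of active starts and enhancers, touched 7 of the 8 in +Dox and 2 at 3 days (the Fgfr4 site and Met site 2), against 73.2% and 37.9% of all sites. Since the sites were chosen for Pax7 binding in +Dox, this order is a description. Between the same groups, RNA of Fgfr4 fell (log2 fold change -2.99). RNA of Met (0.37), Spry1 (0.14) and Fgfr2 (-5.04) was not called, though Fgfr2 was lower without overlap. Enrichment over iPax7 myotubes was 17.9 at Met site 2 and 6.13 at the Fgfr4 site.

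**Figure D5:**
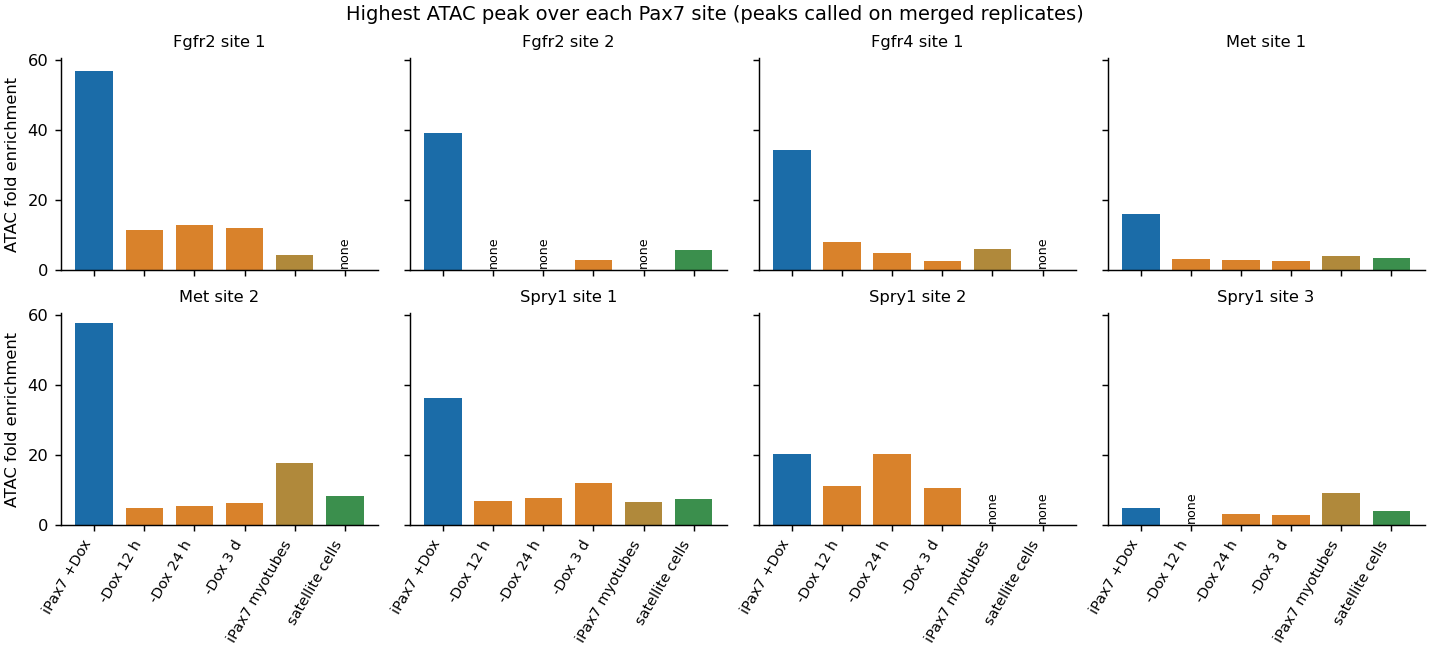
Fold enrichment of the highest ATAC peak (y axis) over each of 8 Pax7 sites by Fgfr2, Fgfr4, Met and Spry1 in 6 samples (x axis: +Dox, 12 and 24 hours and 3 days after withdrawal, iPax7 myotubes and satellite cells); "none" marks a sample without a peak there. The +Dox bar is above the 3-day bar in each panel, from 57.8 against 6.38 at Met site 2 to 4.91 against 2.77 at Spry1 site 3.

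The end of Fgfr4 held 2 further strong +Dox ATAC peaks outside the Pax7 list. One (chromosome 13, 55270138 to 55270974), 18 bases past the gene, had an enrichment of 54.3 in +Dox, 9.11, 9.99 and 14.8 at 12 hours, 24 hours and 3 days, 33.3 in iPax7 myotubes and 12.9 in satellite cells. The other (55272518 to 55273966) had 43.6 in +Dox, 14.9 at 3 days, 40.4 in iPax7 myotubes and 17.2 in satellite cells. In order, the 2 peaks stood above 98.4% and 97.3% of their list's peaks in +Dox. At 3 days they stood above 83.5% and 83.6%, in iPax7 myotubes above 97.1% and 98.2%, and in satellite cells above 83.9% and 89.9%. At the first start site of Fgfr4 the enrichment was low throughout, at 6.28 in +Dox, 4.62 at 3 days and 4.69 in satellite cells, where its RNA was highest.

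At start sites, within 1 kb to each side, all 10 members had an ATAC peak in +Dox and in satellite cells, against 66.8% and 62.1% of annotated genes. Taking the highest peak over all starts of a gene, Spry2 had the highest enrichment, at 66.8 in +Dox, 55.7 at 3 days and 60 in satellite cells, and Fgf2 had the lowest of the members in +Dox, at 2.15, with 10.2 in satellite cells. Fgfr2 kept peaks at its starts after withdrawal, at 16.4 in +Dox and 20.8 at 3 days by the starts from 137409527 to 137410322, and at 14.7 and 33.3 in peaks reaching the window of the start at 137405371, while peaks of H3K27Ac covered 68.6% of its start windows in +Dox and none of them at 3 days. For Fgfr4 this coverage was 77.1% and 46%, and for Fgfr3 it was 0 and 17.4%. The Fgfr4 windows include that of a start at 55269168, near the gene's end at 55270120, so its coverage is not of the first start alone. Peaks of H3K27me3, the Polycomb mark of silent genes, lay at the starts of 3 members, covering 42.9% and 40.7% of the windows of Fgf2, 55.9% and 38.6% of those of Fgfr3, and 6.1% and 5.38% of those of Fgfr1 in +Dox and at 3 days. At the other 7 there was none in either list, and over annotated genes the shares with such a peak were 22.8% and 20.9%. Histone lists give positions without heights and were pooled from replicates, so these coverages have no error.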

How the data were processed

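RNA-seq libraries came as raw counts per gene symbol, deposited per library; the submitters' processing notes list Trimmomatic 0.32, Bowtie2 2.2, TopHat2 2.0, HTSeq 0.6, edgeR and mm9, while library preparation, strand and annotation are not given in the sources used here. The authors' ATAC peak lists give a fold enrichment ratio and -log10 q-values from MACS2 2.0.10, called on merged, deduplicated reads offset for the Tn5 transposase, and their ChIP lists give positions from Qeseq at a p-value of 0.05.

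Counts of 8 libraries (39010958 to 54674619 on genes) were fitted together in edgeR 4.0.16 (R 4.3.3; TMM scaling, filterByExpr with a minimum count of 10, quasi-likelihood test), and genes with a Benjamini-Hochberg adjusted p under 0.05 were called. The SE was taken from the fold change and its F statistic. Normalized counts are counts over TMM library sizes, brought to their geometric mean. Alternatives were DESeq2 1.42.0, other scalings and filters, a replicate block, 2-group fits and leaving out each library. The fit was tested on simulated data. Replicates of a group correlated at 0.88 to 0.966 (Pearson's r of log2 CPM) and differed beyond sampling noise. Sequences and start sites are from NCBIM37 with GENCODE M1.

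The members and lists were chosen with earlier results of these data known. Besides the members, up to 3 called genes per list and comparison were picked by the largest log2 fold change. Their higher group averaged 100 normalized counts or more and their groups did not overlap. Some of those picked, such as Gpc2, Gpc4 and Flrt1, are not described above. Other list genes (among them Fgf7, Fgf11, Hgf, Spint2, Dusp4, Dusp6 and, after withdrawal, Fosl1) were named after their values were seen. C2C12 lists enter the closing section only, and peak lists from other differentiation stages were not used beyond iPax7 myotube ATAC.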

Additional observations from a re-analysis of the deposited data

Results flagged for a closer look

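The Pax7 sites by these genes were also read in C2C12 cells, a mouse myoblast line outside the comparisons of the report, where ATAC peaks were given for cells expressing flag-tagged Pax7 (Pax7-flag) and for a flag control. At 6 of the 8 sites the fold enrichment was above that of the control. Fgfr2 site 1 had 30.9 with Pax7-flag and 4.8 in the control, and Fgfr2 site 2 had 17.8 and no control peak. The Fgfr4 site had 11.7 and no control peak. Met site 1 had 12.9 and no control peak, and Met site 2 had 23.8 against 4.61. Spry1 site 1 had 10.5 and no control peak, whereas Spry1 site 2 had no peak in either list and Spry1 site 3 had 3.18 against 4.99. Over all 2455 Pax7 sites, 60.2% were higher with Pax7-flag. The lists were called on merged replicates, so none of these differences was tested.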

How the results depend on the processing

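Of 423 alternative fold changes of the members, 406 kept their direction and side of the threshold, 12 lost a call, 4 gained one and 1 changed sign, which was Spry1 in -Dox 3d against +Dox without -Dox 3d replicate 1 (log2 fold change -0.15; up to 0.40 without 1 library, and never called). The 19 alternative Fgfr4 to Fgfr1 ratios kept their sign, and none could pass, since 0.1 is the smallest p of the full designs. The 6 alternative counts of members with a peak have no test and moved by at most 1. Between -Dox 3d and +Dox, 1142 genes were called, against 2129 with DESeq2, 2155 in a fit of those 2 groups alone and 488 to 1444 when 1 library was left out, which brought the members called from 2 to between 0 and 3. Between -Dox 3d and satellite cells 5780 genes were called, and 3204 to 6131 without 1 library. For +Dox against satellite cells, 6657 genes were called, and 5159 to 6650 without 1 library. Replicate numbers did not pair the libraries (correlations of same-numbered deviations -0.0487 to 0.0333). With the number as a block, 742 genes were called between -Dox 3d and +Dox, and Fgfr3 lost its call between -Dox 3d and satellite cells (log2 fold change -1.35, adjusted p = 0.0738, edgeR). The causes of these shifts were not tested. The -Dox 3d group holds 2 libraries, so each of them weighs heavily in its comparisons.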

Other observations

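In the 4 C2C12 ATAC lists, no peak lay within 1 kb of a start of Fgfr4, although the peak just past its end had an enrichment of 5.07 in myoblasts, 17.1 in flag control myoblasts, 38.8 with Pax7-flag and 39.2 in myotubes. H3K27Ac covered 51.9% of the Fgfr4 start windows, which include the start near the gene's end, in the control and 70% with Pax7-flag. At Fgfr2 starts, H3K4me1, a mark of enhancers and promoter flanks, covered 16.9% of the windows in the control and 70.2% with Pax7-flag. This was not particular to Fgfr2, as Spry1 had 0 and 57.5% and Fgfr4 10.9% and 38.9%. Fgf2 went the other way (27.2% and 11.6%), and Spry2 had none in either. Over annotated genes, 52.7% had an H3K4me1 peak at a start in the control and 66.9% with Pax7-flag. These are values of merged lists without replicate error.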
